A study of Mus musculus with 19 samples.

Results

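DNA replication machinery is the set of proteins that copies the genome in S phase, and 43 of its genes were followed here across CD8 T lymphocytes of 6 kinds. The genes were taken by name from a roster of replication genes, and each needed a probe set that the platform annotation ties to 1 gene; all 43 had one, of 19938 genes measured on the 19 arrays. Where a gene had more than 1 such probe set, as Pcna and Rpa3 did, the brightest by its mean over all arrays was used. Levels are log2 signals as deposited, so a difference of 1 is a 2-fold difference. Levels of different genes are not compared, because brightness also depends on the probes.

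By their labels, the cells of 16 arrays were TCRP1A T-cell receptor transgenic, Rag-1-/- CD8 T lymphocytes of B10.D2 background. Naive cells gave 4 arrays. Control effectors, activated with their cognate antigen for 72 h, gave 4, and effectors of the same age that were transduced with Stat5ca, a constantly active version of the transcription factor Stat5, and sorted for GFP gave 2. Control cells transferred into congenic hosts were recovered from spleen and lymph nodes on days 18 and 120 (2 arrays), and transferred Stat5ca cells on day 20 by the array labels (4 arrays); the series text puts both recoveries later than day 20 and does not give day 18. The last 3 arrays held transferred Stat5ca cells of T-BetKO genotype, recovered on days 14, 14 and 54 (later than day 14 in the series text), whose labels give a C57BL/6 strain beside the B10.D2 background; these cells were stimulated with anti-CD3/CD28 in place of antigen, and their RNA was labelled with another protocol. The array labels give these cells no TCRP1A genotype while the series text calls them TCRP1A cells, and which holds is not known here. The labels name no transduction for the control cells, so the presence of Stat5ca and the handling that came with it cannot be told apart. Whether the arrays of 1 group stem from different mice or cultures is not stated, so every p-value rests on array-to-array spread, which may be technical.

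Replication starts at origins that are marked by the origin recognition complex and loaded, with Cdc6 and Cdt1, with the ring-shaped MCM helicase. The Cdc7-Dbf4 kinase, Cdc45 and the GINS complex then switch the helicase on, primase and the polymerases copy the strands, the clamp Pcna keeps the polymerases on DNA, and Fen1 and Lig1 join the pieces of the lagging strand. In resting T cells most of these genes are held low by E2F repressor complexes, and they are turned on when antigen and cytokines drive the cells into the cycle.

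Promoter windows of 250 bases before and 50 after the RefSeq start (assembly GRCm38.p6) were found for 36 of the 43 genes. The genes without one were Mcm4, Gins1, Gins2, Gins4, Prim2, Pole and Rfc2. Windows were searched on both strands for 4 E2F words, TTTGGCGC, TTTCGCGC, TTTCCCGC and TTTGCCGC, which the E2F factors are known to bind. A word was found in 14 of the 36 genes (38.9%), against 704 of all 27025 genes with a window (2.60%). The 14 were Orc1, Orc3, Cdc6, Cdt1, Mcm3, Mcm5, Mcm6, Mcm7, Gins3, Pola1, Pold1, Pole2, Rfc3 and Lig1. The words CCAAT (63.9% of the members, 41.1% of all genes) and the CHR words TTTGAA or TTCGAA (25.0% and 21.7%) were searched in the same windows. A match is a string of letters and says nothing of binding in these cells.

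Stretches that hold an E2F word wholly before the start are shown for the 9 genes that have one, because the words were more frequent in the members than in all promoters. All lie upstream of the transcript, are written 5′ to 3′ on the strand of the gene in RefSeq's GRCm38.p6 sequence, and have the E2F words in capitals. In Mcm5 and Mcm6 the words TTTCGCGC and TTTGGCGC overlap on opposite strands, which makes runs of 12 capitals, and Mcm6 holds a further word downstream.
Orc1, chr4:108579411-108579450, plus strand: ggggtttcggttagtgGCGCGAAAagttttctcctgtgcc
Orc3, chr4:34614960-34614999, minus strand: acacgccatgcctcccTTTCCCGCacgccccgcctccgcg
Cdc6, chr11:98907997-98908036, plus strand: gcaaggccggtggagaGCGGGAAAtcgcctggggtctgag
Mcm5, chr8:75109340-75109383, plus strand: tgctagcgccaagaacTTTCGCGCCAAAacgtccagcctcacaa
Mcm6, chr1:128359729-128359831, minus strand: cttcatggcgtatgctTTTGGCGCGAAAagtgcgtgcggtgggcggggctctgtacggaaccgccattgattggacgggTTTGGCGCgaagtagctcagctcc
Mcm7, chr5:138172025-138172064, minus strand: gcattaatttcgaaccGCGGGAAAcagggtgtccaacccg
Gins3, chr8:95633502-95633541, plus strand: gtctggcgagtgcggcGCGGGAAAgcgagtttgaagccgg
Pola1, chrX:93632270-93632309, minus strand: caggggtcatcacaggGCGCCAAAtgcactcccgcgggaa
Rfc3, chr5:151651209-151651234, minus strand: aagtgacgtcgcacgcTTTCGCGCtc

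Over the 43 genes, the mean log2 signal was 8.88, 9.24, 9.14 and 9.20 on the naive arrays and 10.76, 10.63, 10.53 and 10.82 on the control 72 h arrays. It was 10.22 and 9.79 on the Stat5ca 72 h arrays, 8.96 (day 18) and 9.15 (day 120) on the transferred control arrays, and 9.82, 9.88, 9.93 and 9.89 on the transferred Stat5ca arrays. The T-betKO arrays had 9.75 and 9.61 on day 14 and 9.53 on day 54. Control effectors at 72 h lay above every other array. The Stat5ca 72 h arrays lay on both sides of the transferred Stat5ca arrays, the T-betKO arrays came next, and naive and transferred control arrays overlapped at the bottom. The control 72 h group had the highest mean for 42 of the 43 genes. The lowest mean was that of transferred controls for 22, of naive cells for 18 and of T-betKO cells for 3. The shares of all genes with these groups highest or lowest were not counted, so these counts are not read as a trait of the members.

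**Figure D1:**
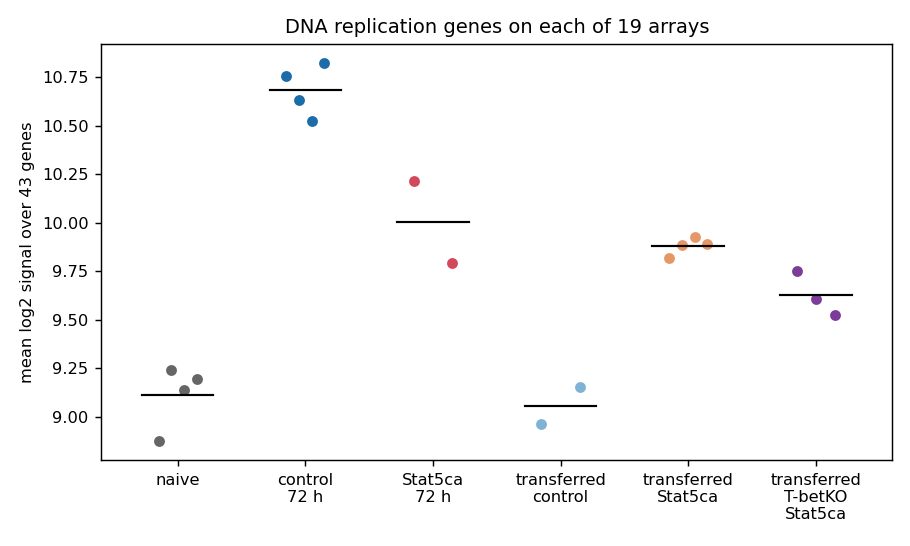
Mean log2 signal over the 43 DNA replication genes (vertical axis) on each of the 19 arrays, by group (horizontal axis); each point is 1 array and each bar the mean of its group. The 4 control 72 h arrays lie between 10.53 and 10.82, above all others, and the 4 transferred Stat5ca arrays between 9.82 and 9.93, above the naive and transferred control arrays.

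The arrays were checked against their labels with marker lists. The 11 measured CD8 T-cell markers averaged between 11.74 and 12.70 on every array, with none under 7.32, the 95th percentile of 1190 olfactory and vomeronasal receptor genes, which serves as a guide to background. The 18 myeloid markers, such as Csf1r and C1qa of macrophages, averaged 7.84 and 8.70 on naive arrays 33 and 35 but 11.74 and 11.60 on naive arrays 34 and 36. They averaged 7.93 to 8.74 in control 72 h, 6.95 to 6.98 in Stat5ca 72 h, 12.30 to 12.42 in transferred control, 9.60 to 10.48 in transferred Stat5ca and 10.62 to 12.33 in T-betKO Stat5ca cells. None of the 18 was under background in the transferred control and T-betKO arrays or on naive arrays 34 and 36, and 13 and 14 were in Stat5ca 72 h. The 4 measured erythroid markers averaged 11.05 on the day 120 control array and 7.38 to 9.63 elsewhere. The 9 measured B-cell markers had group means of 7.16 (control 72 h) to 7.73 (T-betKO). The 3 helper T-cell markers had group means of 7.47 to 8.31 in the groups labelled TCRP1A and 8.95 in T-betKO cells. Against transferred Stat5ca cells, 4 of 9 B-cell and 1 of 3 helper markers were called higher in T-betKO cells, and 0 lower. Against control 72 h, 3 of 9 B-cell markers were called higher in transferred control cells, and 0 lower. Against naive cells, 3 were called higher there and 2 lower. Tbx21, the gene removed in T-betKO cells, had 8.18, 8.19 and 8.34 there against 11.77 to 11.97 in transferred Stat5ca cells; whether its probe set lies in the deleted stretch is not known here. In bulk RNA, fewer cells of a type and less RNA per cell cannot be told apart.

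**Figure D2:**
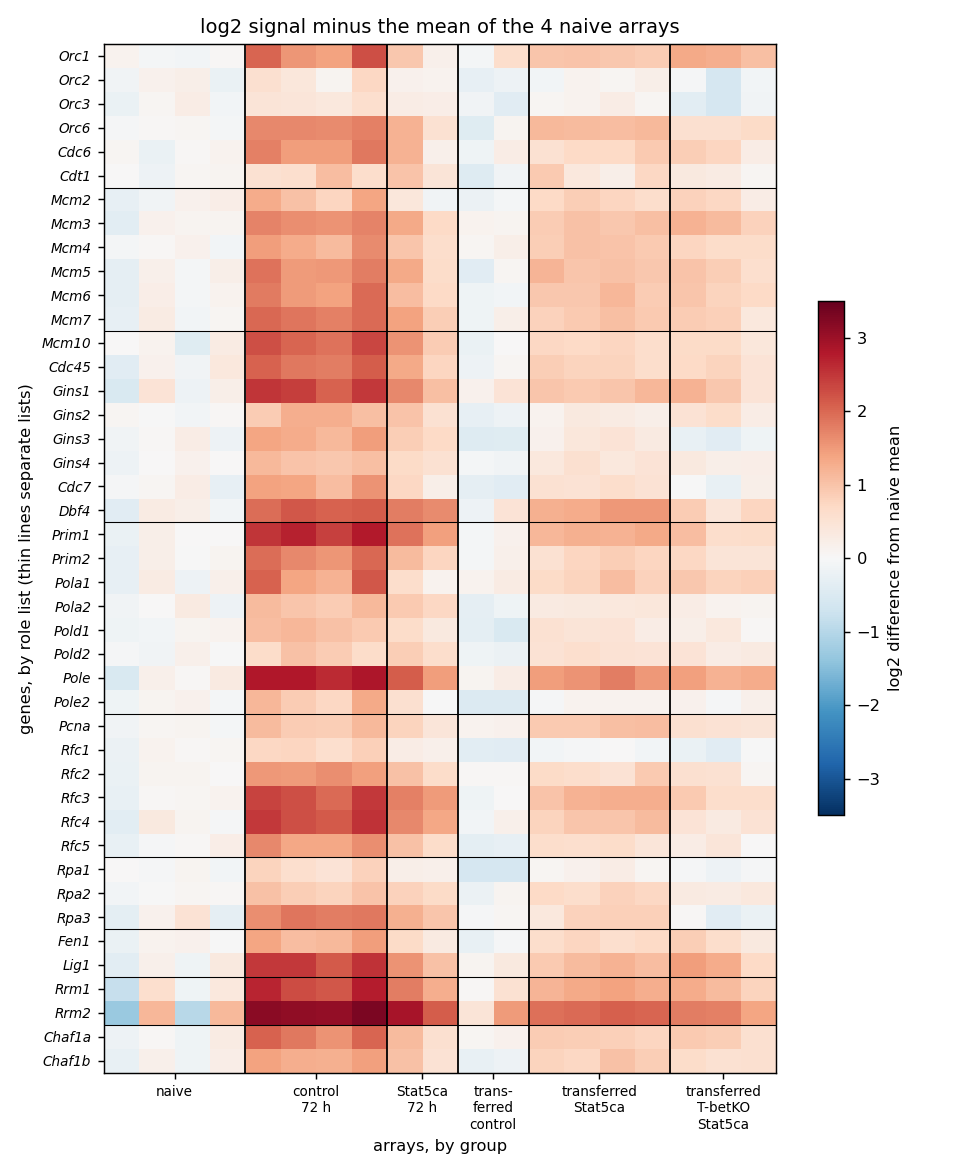
Log2 signal of the 43 genes (rows, by role list) on each of the 19 arrays (columns, by group), minus the mean of the 4 naive arrays; red is higher and blue lower. Red is deepest in the control 72 h columns, where all 43 genes were called higher than in naive cells, and weaker in the transferred Stat5ca columns, where 37 were; in the Rrm2 row, naive arrays 34 and 36 are red and 33 and 35 blue.

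Control effectors at 72 h were compared with naive cells to show what activation by antigen changed. All 43 replication genes rose (limma, Benjamini-Hochberg adjusted p under 0.05 over all 19938 genes), by a median of 1.64 on the log2 scale and a range of 0.44 to 3.16. In 36 the rise was 2-fold or more, against 956 of all 19938 genes. In 42 the lowest control array lay above the highest naive array, as in 18.4% of all genes. Over all genes, 22.0% were called higher and 24.9% lower, with a median difference of -0.09. The myeloid markers moved the other way, with 10 of 18 called lower, and with their mean as a covariate all 43 replication genes were still called.

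Among the genes that mark and license origins, all 6 rose. Orc1, the subunit of the origin recognition complex that comes and goes with the cycle, had log2 signals of 6.77, 6.58, 6.55 and 6.68 on the naive arrays and 8.70, 8.18, 8.04 and 8.90 on the control 72 h arrays, a rise of 1.81 ± 0.20 (SE; n = 4 and 4 here and in the next 6 paragraphs; limma adjusted p = 3.55e-06). Every naive value was under 7.32, and counted from that level the rise was 1.13. Orc2, a core subunit of the complex, had 9.31, 9.60, 9.63 and 9.20 in naive and 9.997, 9.83, 9.52 and 10.15 in control 72 h cells, and its rise of 0.44 ± 0.13 was the smallest of all members (limma adjusted p = 0.0123). Its groups overlapped, and after quantile normalization the difference was 0.24 and was not called. The rises of the loading factors Cdc6 and Cdt1 were 1.64 ± 0.18 and 0.71 ± 0.17.

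The 6 genes of the MCM ring, the motor that unwinds DNA, rose within a narrow band, from 1.12 to 1.91. Mcm7 had 9.62, 10.18, 9.82 and 9.98 in naive and 11.90, 11.78, 11.68 and 11.89 in control 72 h cells, with a rise of 1.91 ± 0.13 (limma adjusted p = 3.69e-08). Mcm2 had 9.77, 9.94, 10.19 and 10.29 in naive and 11.34, 11.08, 10.80 and 11.43 in control 72 h cells, a rise of 1.12 ± 0.15 (limma adjusted p = 2.71e-05). Neither gene's groups overlapped, and the control arrays of Mcm2 were spread over more than those of Mcm7.

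All 8 genes that activate the helicase rose by 2-fold or more. Gins1, a subunit of the GINS complex, had 6.14, 7.14, 6.49 and 6.87 in naive and 9.16, 9.07, 8.73 and 9.15 in control 72 h cells, a rise of 2.37 ± 0.19 (limma adjusted p = 1.54e-07). Its naive values lay under background, and counted from 7.32 the rise was 1.71. Gins4, of the same complex, had 10.13, 10.34, 10.48 and 10.32 in naive and 11.46, 11.31, 11.27 and 11.36 in control 72 h cells, a rise of 1.03 ± 0.08 (limma adjusted p = 9.59e-08). Between these extremes were Mcm10 with 2.14, Dbf4, the partner of the kinase Cdc7, with 2.08, and Cdc45 with 1.95.

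Of the primase and polymerase genes, all 8 rose. Pole, the catalytic subunit of the leading-strand polymerase epsilon, had 7.69, 8.41, 8.27 and 8.53 in naive and 11.04, 11.02, 10.84 and 11.06 in control 72 h cells. Its rise of 2.76 ± 0.16 was exceeded among the members only by that of Rrm2 (limma adjusted p = 9.05e-09). Pold2, an accessory subunit of polymerase delta, had 10.57, 10.47, 10.78 and 10.61 in naive and 11.26, 11.65, 11.50 and 11.24 in control 72 h cells, a rise of 0.80 ± 0.10 (limma adjusted p = 9.03e-06). Pole2, the accessory partner of Pole, rose by 1.03 ± 0.14. The primase gene Prim1 rose by 2.59 ± 0.12.

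The sliding clamp and its loader rose in 6 of 6 genes. Rfc4 of the loader had 9.07, 9.78, 9.53 and 9.41 in naive and 11.91, 11.71, 11.61 and 11.99 in control 72 h cells, a rise of 2.35 ± 0.14 (limma adjusted p = 9.30e-09). Rfc1, the large subunit of the loader, had 9.41, 9.74, 9.67 and 9.68 in naive and 10.35, 10.37, 10.20 and 10.45 in control 72 h cells, a rise of 0.72 ± 0.08 (limma adjusted p = 3.66e-06). Neither gene's groups overlapped. Pcna, the clamp, rose by 1.002 ± 0.09, and its second probe set gave 1.01.

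The single-strand binding genes Rpa1, Rpa2 and Rpa3, which coat unwound DNA, all rose. Rpa3, the smallest subunit, had 8.83, 9.33, 9.69 and 8.86 in naive and 10.81, 11.06, 10.95 and 11.03 in control 72 h cells, a rise of 1.79 ± 0.17 (limma adjusted p = 7.76e-07); its second probe set gave 1.29. Rpa1, the large subunit, had 10.43, 10.37, 10.52 and 10.32 in naive and 11.20, 10.99, 10.90 and 11.22 in control 72 h cells, a rise of 0.67 ± 0.08 (limma adjusted p = 1.06e-05). Both subunits stood apart between the groups. Lig1, the ligase that seals the lagging strand, had 8.16, 8.70, 8.39 and 8.86 in naive and 11.004, 11.002, 10.68 and 11.05 in control 72 h cells, a rise of 2.41 ± 0.15 (limma adjusted p = 1.47e-08). Fen1, the nuclease that trims it, had 8.05, 8.42, 8.43 and 8.26 in naive and 9.68, 9.36, 9.42 and 9.76 in control 72 h cells, a rise of 1.26 ± 0.11 (limma adjusted p = 5.87e-07). All naive arrays lay below all control arrays in both lagging-strand genes.

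Ribonucleotide reductase makes the building blocks of DNA, and its subunit genes had the highest median rise of the roles (2.81). Rrm2, the regulated small subunit, had 7.66, 10.11, 7.99 and 10.08 on naive arrays 33, 34, 35 and 36 and 12.13, 12.05, 12.05 and 12.25 in control 72 h cells, a rise of 3.16 ± 0.46 (limma adjusted p = 5.87e-05). Rrm1, the large subunit, had 9.10, 10.51, 9.76 and 10.27 in naive and 12.58, 12.18, 12.07 and 12.67 in control 72 h cells, a rise of 2.47 ± 0.25 (limma adjusted p = 1.54e-06). On naive arrays 34 and 36 both genes were higher than on 33 and 35, by over 2 on the log2 scale for Rrm2. These are the arrays with high myeloid markers, and 6 proliferation markers such as Mki67 and Top2a averaged 9.43 and 9.32 on them against 7.19 and 7.62 on the other two. Of the 43 genes, 17 had both of these arrays above the other two. The share of all genes that did so was not counted, so 17 is not read as a trait of the members. The part of other cells in this split was not tested. Without arrays 34 and 36 the rises were 4.30 for Rrm2 and 2.94 for Rrm1, and all 43 genes were still called.

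The chromatin assembly genes, whose product lays histones on new DNA, both rose. Chaf1a had 7.57, 7.77, 7.60 and 8.02 in naive and 9.81, 9.58, 9.31 and 9.79 in control 72 h cells, a rise of 1.88 ± 0.13 (limma adjusted p = 4.00e-08). Chaf1b had 8.74, 9.18, 8.87 and 9.25 in naive and 10.43, 10.28, 10.26 and 10.46 in control 72 h cells, a rise of 1.35 ± 0.13 (limma adjusted p = 7.78e-07). Their groups did not overlap. Split by promoter letters, the 14 genes with an E2F word rose by a median of 1.67 and the 22 with a window but no word by 1.43, with ranges of 0.46 to 2.41 and 0.44 to 3.16 that overlap.

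Other genes of the pathway moved less uniformly in this comparison. Of 30 other replication factors, 24 rose and 1 fell. Ticrr, which helps Cdc45 onto the helicase, rose by 3.10 ± 0.25 and the histone chaperone Asf1b by 2.34 ± 0.27, while Mcm9, a helicase relative outside the ring, fell by 0.31 ± 0.10. Of 8 measured nucleotide-supply genes 7 rose, with Tyms, thymidylate synthase, at 2.14 and Dck, deoxycytidine kinase, at 1.73. Rrm2b, the reductase subunit that p53 controls, fell by 0.33 ± 0.12. Of 13 E2F and pocket-protein genes 12 rose, among them E2f8 (2.72), E2f3 (1.85) and E2f1 (1.49). The repair and bypass polymerases rose in 5 of 9, with Polh at 1.85 and Polq at 1.57. All 6 measured proliferation markers rose, with Bub1 of the spindle checkpoint at 4.24, Top2a at 3.95 and Mki67 at 3.34 ± 0.66 (SE).

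At 72 h, Stat5ca effectors were compared with control effectors, which asks what active Stat5 changed in freshly activated cells. Of the 43 replication genes, 30 fell and 13 were not called; 0 rose, and 0 had an unadjusted p under 0.05 in that direction. The median difference was -0.68 and the range -1.35 to 0.01. Both Stat5ca arrays lay below all 4 control arrays for 37 genes, as for 14.7% of all genes. Over all genes, 2.37% were called higher and 3.35% lower, with a median of 0.04.

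Pola1, the catalytic subunit of the polymerase that extends primers, had 10.25, 9.56, 9.39 and 10.34 in control and 8.79 and 8.29 in Stat5ca cells at 72 h, and fell by 1.35 ± 0.25 (SE; n = 4 and 2; limma adjusted p = 0.0062). Orc1 had 7.60 and 6.82 in Stat5ca cells and fell by 1.25 ± 0.24 (limma adjusted p = 0.0084). Its group mean there was under background, and counted down to 7.32 it fell by 1.13. Lig1 had 10.10 and 9.55 and fell by 1.11 ± 0.19 (limma adjusted p = 0.0035). None of the 3 overlapped between the groups. Only Chaf1a among the other genes fell by 2-fold or more (-1.05).

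By role, 5 of 6 MCM genes fell, 6 of 8 helicase activators, 6 of 8 primase and polymerase genes, 5 of 6 clamp and loader genes, and both chromatin assembly genes. The genes that were not called included the origin genes Orc2 (-0.30), Orc3 (-0.21) and Cdt1 (0.01), the accessory subunits Pold2 (-0.06) and Pola2 (-0.20), and both reductase genes, Rrm1 at -0.94 ± 0.30 and Rrm2 at -0.65 ± 0.56. Of the other lists, 12 of 30 replication factors and 1 of 13 E2F and pocket genes fell (E2f1, -0.85 ± 0.22; limma adjusted p = 0.0351). Of 8 nucleotide-supply genes, 4 fell and 1 rose, with Tyms at -1.22 and Samhd1, which breaks nucleotides down, at 0.53. None of the 6 proliferation markers was called by limma, 1 had an unadjusted p under 0.05, and their median was -0.66.

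The 2 Stat5ca arrays differed from each other. Array 9 was higher than array 10 for 43 of 43 genes, by a median of 0.45 and by up to 1.02 for Cdc6 (8.90 and 7.88). Without array 10, limma called 0 of the 43 genes, while 29 had an unadjusted p under 0.05, the median was -0.47 and 98 genes were called in all. Without array 10 Pola1 was at -1.10, Orc1 at -0.86 and Lig1 at -0.84. Array 10 lay under every control array for 42 genes and array 9 for 37. The shares of all genes for these single arrays, and for array 9 above array 10, were not counted. Leaving out any 1 of the other arrays left 23 to 32 calls. Of the CD8 T-cell markers limma called 0 of 11 in this comparison (3 at an unadjusted p under 0.05, median 0.17), and 2 of 18 myeloid markers fell. With the CD8 marker mean as a covariate 20 genes were called lower, with a median of -0.57, and with the myeloid mean 29.

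Transferred control cells, recovered weeks after activation, were compared with control effectors at 72 h and with naive cells. Against the effectors, all 43 genes fell, with a median difference of -1.59 on the log2 scale, and both transferred arrays lay below every 72 h array for each of them, as for 31.9% of all genes. Over all genes, 13.1% were called higher and 24.4% lower. Pole had 8.31 and 8.48 on the arrays of days 18 and 120 and fell by 2.59 ± 0.20 (SE; n = 2 and 4; limma adjusted p = 2.12e-07). Prim1, the catalytic subunit of primase, had 10.46, 10.66, 10.38 and 10.74 at 72 h and 7.90 and 8.11 after transfer, and fell by 2.55 ± 0.14 (limma adjusted p = 1.83e-08). Rfc3 of the clamp loader had 10.52, 10.38, 10.13 and 10.62 and then 7.99 and 8.16, and fell by 2.34 ± 0.14 (limma adjusted p = 2.31e-08). In all 3 genes the transferred values lay within the range of the naive arrays. The smallest falls were those of Orc2 (-0.67) and Orc3 (-0.72). The myeloid markers moved the other way, with 16 of 18 called higher; with their mean as a covariate 41 genes were called lower, and with the CD8 marker mean 38.

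Against naive cells, 4 of the 43 genes fell and 39 were not called; the median difference was -0.07. Over all genes, 7.94% were called higher and 9.81% lower, so the members' share of calls (4 of 43 lower) was near that of all genes. Rpa1 had 9.81 and 9.83 after transfer and 10.43, 10.37, 10.52 and 10.32 in naive cells, and fell by 0.59 ± 0.10 (SE; n = 2 and 4; limma adjusted p = 0.0018). Gins3 had 7.75 and 7.77 after transfer and 8.07, 8.25, 8.45 and 8.03 in naive cells, and fell by 0.44 ± 0.13 (limma adjusted p = 0.0260). Pold1, the catalytic subunit of polymerase delta, had 9.12 and 8.92 after transfer and 9.31, 9.36, 9.55 and 9.58 in naive cells, and fell by 0.43 ± 0.11 (limma adjusted p = 0.0188). In these 3 genes both transferred arrays lay below every naive array. The other gene called was Rfc1, the large loader subunit, with -0.39. The CD8 T-cell markers were lower as well, with 10 of 11 called and a median of -0.63, and the myeloid list was higher, with 6 of 18 called and a median of 2.45. With the myeloid mean as a covariate, limma called 2 of the 43 genes. With the CD8 marker mean it called 0, and 17 had an unadjusted p under 0.05. In the fit without a covariate, 6881 of all 19938 genes had an unadjusted p under 0.05. That share is not given for the covariate fit, so 17 is not read as a trait of the members. Without the day 120 array, whose erythroid markers were high, the calls of Gins3 (-0.46), Pold1 (-0.33) and Rfc1 (-0.37) were lost. Without the day 18 array those of Gins3 (-0.43) and Rfc1 (-0.40) were, and without naive array 35 that of Gins3 (-0.36).

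Rrm2 was the member with the highest difference from naive cells in that comparison (0.97 ± 0.56, limma adjusted p = 0.2258), and its value turned on which naive arrays were used. Its transferred control values were 9.41 and 10.45, beside 7.66, 10.11, 7.99 and 10.08 in naive cells. Without naive arrays 34 and 36, Rrm2 (2.11), Rrm1 (0.77) and Gins1 (0.66) were called higher in transferred control than in naive cells, and Rfc1 (-0.30) was no longer called. Gins1 lay under background on average in both groups. The day 120 array was higher than that of day 18 for 36 of 43 genes, by a median of 0.17 and by up to 1.04 for Rrm2. The share of all genes higher on the day 120 array was not counted. Its proliferation markers averaged 9.49 against 8.85, and its erythroid markers 11.05 against 8.60. With 1 array a day the difference has no replicate check.

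Transferred Stat5ca cells were compared with transferred control cells, which asks whether active Stat5 kept replication genes higher after transfer. By the array labels, recovery was on days 18 and 120 in control and on day 20 in Stat5ca cells. Of the 43 genes, 39 rose and 4 were not called (Orc1, Orc2, Pola1 and Rrm2). The median difference was 0.82 and the range 0.31 to 1.41, and every Stat5ca array lay above both control arrays for 43 of 43 genes, as for 6969 of all 19938 genes. In 9 genes the rise was 2-fold or more. Over all genes, 16.9% were called higher and 8.46% lower, with a median of 0.08.

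Pole had 9.69, 9.79, 10.01 and 9.73 on the transferred Stat5ca arrays against 8.31 and 8.48 in transferred control cells, a rise of 1.41 ± 0.20 (SE; n = 4 and 2; limma adjusted p = 2.48e-04). Orc6, a small subunit of the origin complex, had 10.30, 10.27, 10.25 and 10.31 against 8.74 and 9.27, a rise of 1.28 ± 0.15 (limma adjusted p = 6.83e-05). Rfc3 had 9.15, 9.37, 9.40 and 9.40 against 7.99 and 8.16, a rise of 1.25 ± 0.14 (limma adjusted p = 3.88e-05). In each gene the Stat5ca arrays lay close together and apart from the controls, with 1 lower Stat5ca array in Rfc3. Dbf4 (1.23), Prim1 (1.21), Mcm5 (1.19), Mcm6 (1.12), Chaf1b (1.06) and Rrm1 (1.01) were the other genes with a 2-fold rise.

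All 6 MCM genes, all 8 helicase activators, 7 of 8 primase and polymerase genes, all 6 clamp and loader genes and all 3 single-strand binding genes rose. Among the origin genes 4 of 6 did, with Cdt1 at 0.84, Cdc6 at 0.66 and Orc3 at 0.38. Of the genes not called, Rrm2 was at 1.04 ± 0.56, Orc1 at 0.68 ± 0.24, Pola1 at 0.62 ± 0.25 and Orc2 at 0.31 ± 0.16. Orc1 and Gins1 were under background on average in control cells, and counted from 7.32 their differences were 0.28 and 0.34. The 14 genes with an E2F word had a median of 0.85 and the 22 without one 0.84.

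Of 30 other replication factors, 18 rose, with Tipin, which steadies the fork, at 1.37 ± 0.17 and Asf1b at 1.30 ± 0.33. Nucleotide-supply genes rose in 4 of 8, with Tyms at 0.98 and Dut at 0.81. Of 13 E2F and pocket genes 5 rose and 1 fell. E2f7 rose by 0.86 ± 0.18, E2f3 by 0.67 ± 0.13 and E2f1 by 0.64 ± 0.22, while Rb1, the retinoblastoma repressor, fell by 0.45 ± 0.13. Polh (1.05) and Polk (0.69) were among 5 of 9 repair and bypass polymerases that rose. Of 6 proliferation markers, Birc5 rose (0.96 ± 0.22, limma adjusted p = 0.0053), while Mki67 was at 0.66 ± 0.80 and was not called.

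Other markers differed between these groups too. The CD8 T-cell markers were higher in transferred Stat5ca cells, with 9 of 11 called and a median of 0.64, from group ranges of 11.74 to 11.93 and 12.46 to 12.50. The myeloid markers were lower, with 5 of 18 called and a median of -2.17. With the myeloid mean as a covariate, 37 of the 43 genes were called higher and the median was 0.94. With the CD8 marker mean as a covariate, 26 were called higher and the median was 1.35, with Pole at 2.08, Rfc3 at 1.73 and Orc6 at 1.44. Neither the myeloid nor the CD8 mean overlapped between these groups. The covariate fits therefore rest on a slope drawn from spread within groups and cannot tell the groups from the markers. Without the control array of day 18, 27 genes were called, with Rrm1 (0.77), Cdt1 (0.66) and Cdc6 (0.46) among those lost, and without that of day 120, 34, with Cdc6 (0.86) and Orc3 (0.24) lost. Rfc3, Orc6 and Pole were still called with either covariate and with any 1 array left out.

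**Figure D3:**
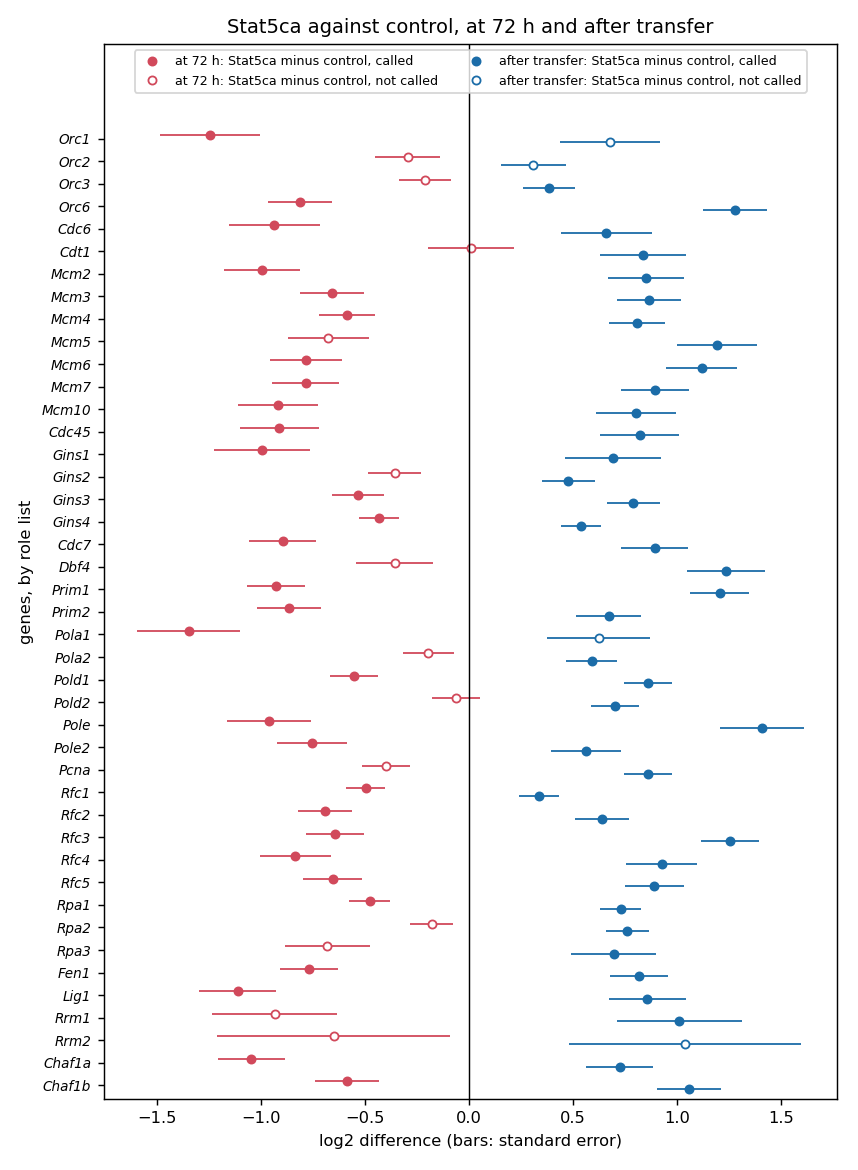
Log2 difference between Stat5ca and control cells (horizontal axis, with standard error) for each of the 43 genes (vertical axis), at 72 h in red and after transfer in blue; filled points were called by limma. At 72 h 30 genes are called, all below 0, and after transfer 39 are called, all above 0.

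The difference between these effects was tested in the same fit. The Stat5ca effect was more positive after transfer than at 72 h for 40 of the 43 genes, with a median of 1.59. Orc2, Cdt1 and Rrm2 were not called. The members' median difference of transferred cells from 72 h cells was -1.59 in control and -0.17 in Stat5ca cells. Over all genes, 12.3% were called more positive and 5.48% more negative. For Pole the difference between the effects was 2.37 ± 0.29 (SE; n = 4, 2, 2 and 4; limma adjusted p = 1.31e-04), from -0.96 at 72 h and 1.41 after transfer. For Prim1 it was 2.13 ± 0.20 (limma adjusted p = 2.39e-05), from -0.93 and 1.21. For Orc6 it was 2.09 ± 0.22 (limma adjusted p = 4.89e-05), from -0.81 and 1.28. At 72 h Prim1 had 9.86 and 9.40 and Orc6 10.39 and 9.70 on the Stat5ca arrays, against 10.85, 10.84, 10.83 and 10.92 for Orc6 in control cells, so the signs of both effects were opposite. Without Stat5ca array 10, 39 genes were still called, with a median of 1.36.

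Within Stat5ca cells, the transferred arrays were compared with those at 72 h. Of the 43 genes, 2 rose, 6 fell and 35 were not called, with a median of -0.17. Over all genes, 8.61% were called higher and 12.7% lower, so the share of members called was near that of all genes. Mcm2 had 10.73, 10.89, 10.79 and 10.65 after transfer against 10.43 and 9.91 at 72 h, a rise of 0.60 ± 0.18 (SE; n = 4 and 2; limma adjusted p = 0.0291). Pcna had 12.98, 12.98, 13.11 and 13.12 against 12.84 and 12.46, a rise of 0.39 ± 0.12 (limma adjusted p = 0.0229). In both, all transferred arrays lay above both 72 h arrays. The 6 genes that fell lay in the clamp loader, helicase activation and polymerase lists. Rfc4 had 10.22, 10.43, 10.43 and 10.56 against 11.14 and 10.80, and fell by 0.56 ± 0.17 (limma adjusted p = 0.0312). Gins2 had 9.21, 9.43, 9.37 and 9.27 against 10.06 and 9.61, and fell by 0.52 ± 0.13 (limma adjusted p = 0.0081). Pola2 had 10.24, 10.26, 10.31 and 10.32 against 10.85 and 10.65, and fell by 0.47 ± 0.12 (limma adjusted p = 0.0120). In each of these 3 genes all transferred arrays lay below both 72 h arrays. The other falls were those of Rfc3 (-0.44), Gins3 (-0.43) and Prim1 (-0.42).

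Leaving out 1 array at a time left 3 to 5 genes called, and 3 to 6 of the 8 calls were lost. Without Stat5ca array 10 the rises of Mcm2 (0.34) and Pcna (0.20) were lost, together with the calls of Gins3 (-0.52) and Rfc3 (-0.57), and without array 9 all 6 falls were, with Rfc4 at -0.39, Gins2 at -0.30 and Pola2 at -0.37. Single transferred arrays decided calls too. Mcm2 was not called without array 12 (0.55) or 13 (0.59), Pcna without 13 or 14 (both 0.37), and Rfc4 without 11 (-0.49), 12 or 13 (both -0.56). Gins2 and Pola2 kept their calls without any 1 transferred array. With the myeloid mean as a covariate, whose list was called higher after transfer for 13 of 18 genes, 5 of the 8 calls were lost: Mcm2 (0.37), Pcna (0.31), Gins2 (-0.46), Pola2 (-0.41) and Gins3 (-0.39). Another 7 genes were gained, and all 10 genes then called were lower. With the CD8 marker mean Mcm2 (0.40), Pcna (0.32) and Gins3 (-0.43) were lost, 8 genes were gained, and all 13 called were lower.

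**Figure D4:**
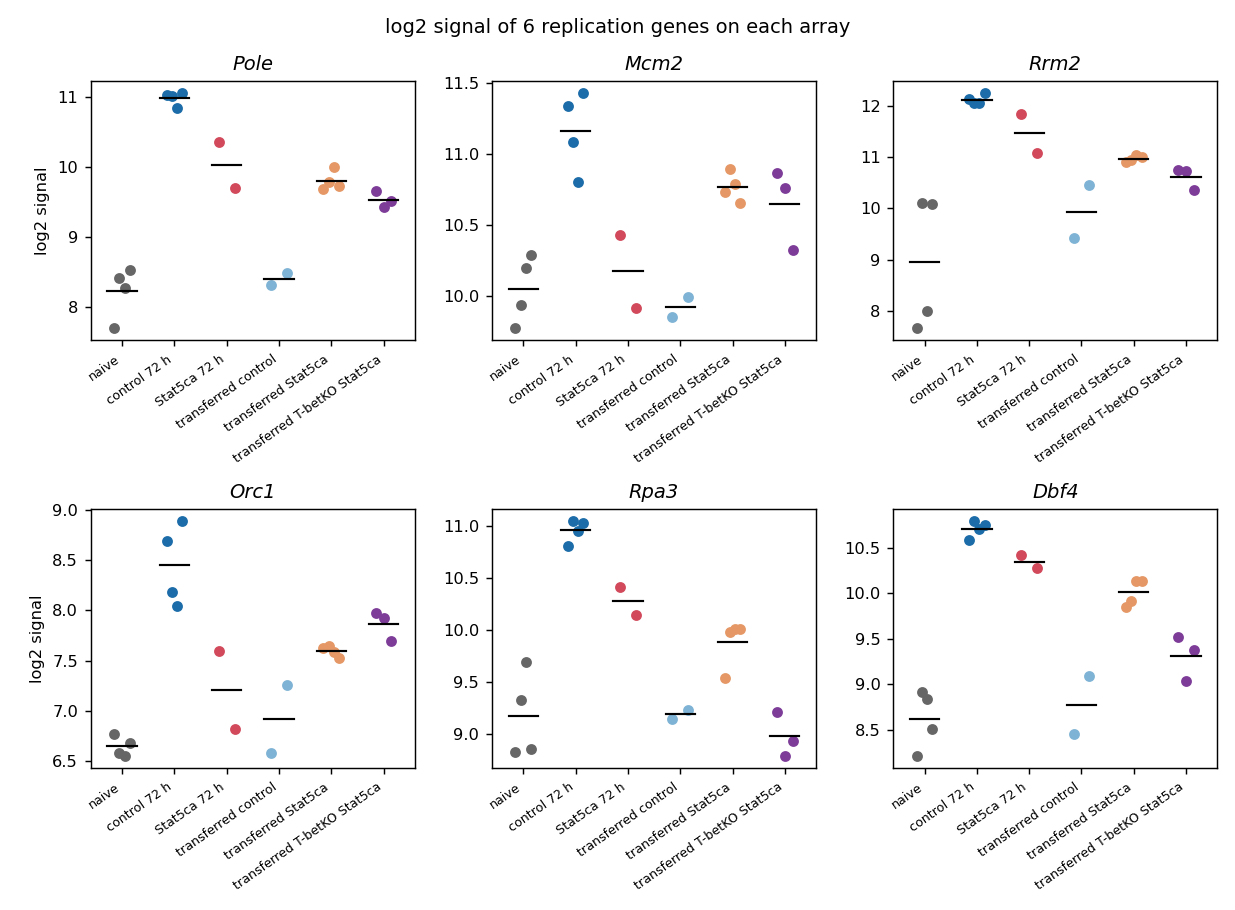
Log2 signal (vertical axis) of Pole, Mcm2, Rrm2, Orc1, Rpa3 and Dbf4 on each of the 19 arrays, by group (horizontal axis); points are arrays and bars group means, and each panel has its own scale. Pole and Dbf4 of transferred Stat5ca cells lie above both transferred control arrays, Rrm2 splits the naive arrays into 2 pairs, and Rpa3 of the T-betKO arrays lies between 8.79 and 9.22, below every transferred Stat5ca array.

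Transferred Stat5ca cells were also set against naive cells. Of the 43 genes, 37 rose and 6 were not called (Orc2, Orc3, Gins2, Pole2, Rfc1 and Rpa1), with a median of 0.72. Over all genes, 15.8% were called higher and 12.7% lower. In 36 genes every transferred array lay above every naive array, as in 15.2% of all genes, and in 38 every one lay below all control 72 h arrays, as in 18.1%. Rrm2 had 10.90, 10.93, 11.04 and 11.01 against 7.66, 10.11, 7.99 and 10.08, a rise of 2.01 ± 0.46 (SE; n = 4 and 4; limma adjusted p = 0.0040); without naive arrays 34 and 36 it was 3.15. Pole rose by 1.58 ± 0.16 (limma adjusted p = 7.42e-06). Dbf4, which activates the kinase Cdc7 in S phase, had 9.85, 9.91, 10.14 and 10.13 against 8.21, 8.92, 8.84 and 8.51, a rise of 1.39 ± 0.15 (limma adjusted p = 1.19e-05). Dbf4 and Pole did not overlap between the groups. The myeloid and CD8 marker means of the transferred Stat5ca arrays lay within the range of the naive arrays, and with either mean as a covariate 37 genes were called. This comparison shares its arrays with the preceding ones, so their counts are not independent.

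T-betKO Stat5ca cells were compared with transferred Stat5ca cells labelled TCRP1A, which asks what the loss of T-bet, the effector factor encoded by Tbx21, changed. The labelled genotype and strain, stimulus, labelling protocol and days of recovery differ between these groups as well and cannot be told apart from T-bet. Of the 43 genes, 11 fell and 32 were not called, with a median of -0.23 and a range of -0.91 to 0.27. Over all genes, 7.03% were called higher and 13.8% lower, so 11 of 43 was above the background share. In 18 genes every T-betKO array lay below every Stat5ca array, as in 19.9% of all genes. Orc1 was the 1 gene with every T-betKO array above, which held for 10.5% of all genes.

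Rpa3 had 9.22, 8.79 and 8.94 on the T-betKO arrays of days 14, 14 and 54 against 9.54, 9.98, 10.01 and 10.01 in Stat5ca cells, and fell by 0.91 ± 0.18 (SE; n = 3 and 4; limma adjusted p = 0.0026). All T-betKO values lay below all Stat5ca values and within or under the range of naive cells; on the second probe set of Rpa3 the difference was -0.47. Dbf4 had 9.52, 9.04 and 9.38 against 9.85, 9.91, 10.14 and 10.13, and fell by 0.70 ± 0.17 (limma adjusted p = 0.0086). Gins3 had 7.94, 7.80 and 8.04 against 8.36, 8.61, 8.69 and 8.53, and fell by 0.62 ± 0.11 (limma adjusted p = 0.0013). Neither gene's groups overlapped.

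The calls were spread over roles. Both partners of the origin-firing kinase fell, Cdc7 by 0.55 ± 0.15 beside Dbf4. The origin genes Orc3 (-0.49) and Orc6 (-0.53), the clamp Pcna (-0.49), the loader genes Rfc3 (-0.47) and Rfc4 (-0.53), Rpa2 (-0.39) and Prim1 (-0.47) fell. None of the 6 MCM genes was called by limma; 1 had an unadjusted p under 0.05, and their differences ran from -0.27 (Mcm4) to 0.07 (Mcm3). Lig1 (0.07 ± 0.19), Fen1 (-0.06 ± 0.14), Chaf1a (-0.05 ± 0.14) and Pole (-0.27 ± 0.17) were not called. Orc1 had 7.97, 7.93 and 7.69 against 7.62, 7.65, 7.59 and 7.53 and was above every Stat5ca array, with a difference of 0.27 ± 0.20 that was not called (limma adjusted p = 0.3972).

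Of 30 other replication factors, 10 fell, with Orc5 at -0.81 and Tipin at -0.65. Repair and bypass polymerases fell in 6 of 9, among them Polh (-0.72) and Polk (-0.62). Samhd1 (-0.35), E2f6 (-0.45) and Rbl2 (-0.39) were the called genes of nucleotide supply and of the E2F and pocket list. E2f1 was at -0.01 ± 0.21. None of 6 proliferation markers was called by limma, 0 had an unadjusted p under 0.05, their median was -0.01, and Mki67 was at 0.16 ± 0.67.

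The CD8 T-cell markers were lower in T-betKO cells, with 5 of 11 called lower, 1 called higher and a median of -0.43. The myeloid markers were at 12.33 and 12.25 on the day 14 arrays and 10.62 on that of day 54, against 9.60 to 10.48 in Stat5ca cells, with 2 of 18 called higher. RNA integrity numbers were 7 and 6 on the day 14 arrays and 8 on that of day 54, against 8 or 9. With the myeloid mean as a covariate 15 genes were called lower, with the CD8 marker mean 5, and with the RNA integrity number 6, without Dbf4 (-0.66). With the CD8 marker mean Rpa3 was at -0.78, Dbf4 at -0.70 and Gins3 at -0.55, and none of the 3 was called. Without T-betKO array 40, of day 14, 5 genes were called; Dbf4 (-0.56), Cdc7 (-0.43), Orc3 (-0.38), Prim1 (-0.39), Rfc3 (-0.42) and Rfc4 (-0.48) were not. Prim1 was also not called without the day 54 array (-0.40) or without Stat5ca array 14 (-0.43). With the day 54 array alone, limma called 0 genes, 12 had an unadjusted p under 0.05, and Rpa3 was at -0.95, Dbf4 at -0.63 and Gins3 at -0.51; a single array is then assumed to vary like the other groups. Within the T-betKO group, day 14 array 39 was higher than the day 54 array for 35 of 43 genes (median 0.23) and day 14 array 40 for 24 (median 0.03). Array 39 was also higher than array 40, of the same day, for 38 genes (median 0.14). The shares of all genes for these array pairs were not counted.

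**Figure D5:**
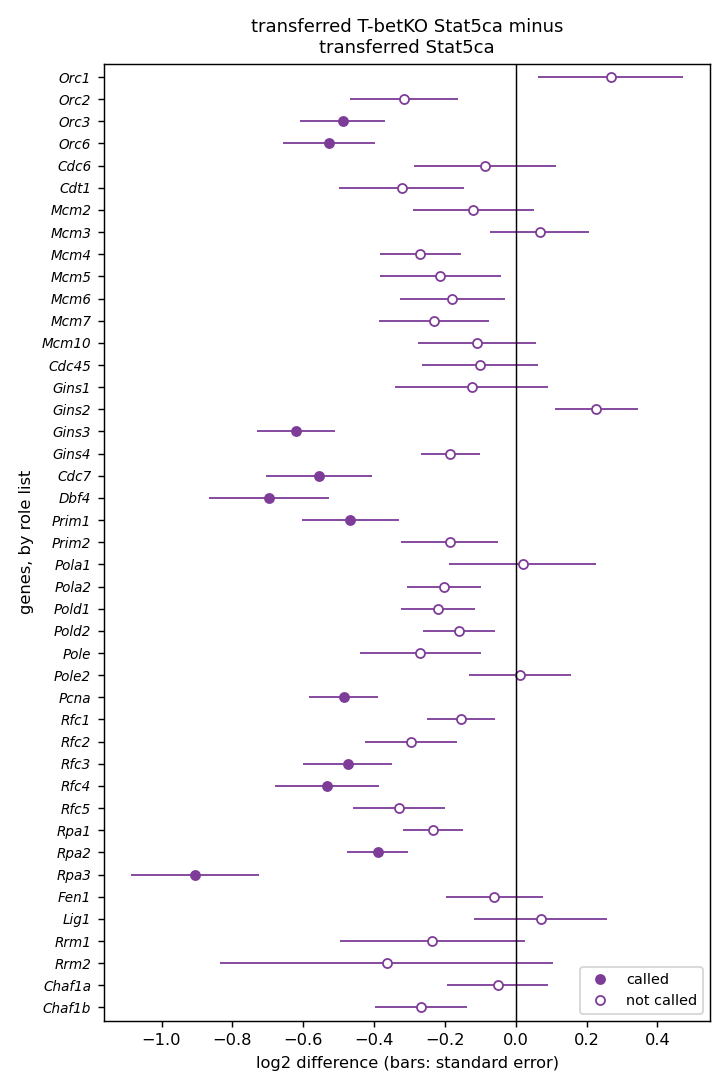
Log2 difference between transferred T-betKO Stat5ca and transferred Stat5ca cells (horizontal axis, with standard error) for each of the 43 genes (vertical axis); filled points were called by limma. The 11 called genes all lie below 0, with Rpa3 lowest at -0.91, and no MCM gene is filled.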

How the data were processed

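RNA of 19 samples was hybridised to Affymetrix mouse gene arrays. The authors deposited log2 signals per probe set, made with Affymetrix Expression Console per the submitters' processing notes; its version, summarization and normalization were not given in the sources used here. No scanner files were used. Array medians ran from 7.69 to 7.89. Of 35557 probe sets, 21789 were named to 1 gene by GEO's platform annotation, 1621 to several and 12147 to none; several-gene and unnamed sets were left out, and the brightest set stood for a gene. limma 3.58.1 (lmFit and eBayes in R 4.3.3) was fitted to 19938 genes. The first 8 comparisons used the 16 arrays labelled TCRP1A, and the T-betKO one all 19. Benjamini-Hochberg adjustment was over all genes, with a threshold of 0.05. In simulated data with 19738 genes unchanged, a log2 change of 0.5 was called in 34.3% to 71.6% of changed genes between groups. For the difference between the Stat5ca effects it was called in 10.4%. A change of 1 was called in 59.7% to 97% over all comparisons. Fewer genes were changed there than were called in any comparison of the data, and values were drawn independently for each gene and array. These percentages therefore do not measure the power of the comparisons in these data. No filter on dim genes was used. Values on every array are given for the members with the largest and smallest difference of each role in the first comparison, and elsewhere for the 3 largest called rises and falls and for called members against the majority.

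The 43 genes and all lists were chosen with earlier results of these data known. From the other lists, the 2 largest called changes in each direction of the 3 comparisons against naive, transferred control and transferred Stat5ca cells were named, with Mki67 and E2f1. Array values of Cdc6 in Stat5ca cells, Rrm2 in transferred control cells and Orc1 in T-betKO cells, and Tyms and Samhd1 at 72 h, were added after their values were seen. Alternatives were other normalizations, moderation, probe set choices, filters, array weights, covariates and arrays left out; the CD8 marker covariate was added after seeing the data. Promoter windows came from RefSeq's GRCm38.p6 table. Protein sequences were not analysed here.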

Additional observations from a re-analysis of the deposited data

Results flagged for a closer look

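The Stat5ca effect differed between the settings for 40 of 43 genes, being more positive after transfer than at 72 h by limma's test of the difference. The members' median difference of transferred cells from 72 h cells was -1.59 in control and -0.17 in Stat5ca cells. Over all genes, 12.3% were called more positive and 5.48% more negative. The difference was 2.37 ± 0.29 (SE) in Pole (limma adjusted p = 0.000131). It was 2.13 ± 0.20 in Prim1 (limma adjusted p = 2.39e-05) and 2.09 ± 0.22 in Orc6 (limma adjusted p = 4.89e-05).

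In 87 groups of 4 arrays (29 genes and means), 3 held an array far from the others by Dixon's criterion, which chance does in about 1 in 20 groups (5%). Rpa3 was 9.54 on transferred Stat5ca array 11 and 9.98 to 10.01 on the other 3. Rfc3 was 9.15 on the same array and 9.37 to 9.40 on the others. Lig1 was 10.68 on control 72 h array 3 and 11.002 to 11.05 on the others.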

How the results depend on the processing

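No call among the named genes changed sign under any alternative run. Apart from the 2-fold minimum, counts of members under the alternatives are mostly given without the count of all genes. They are not read against a background share. Of the counts of members called, those for control 72 h against naive (36 to 43), transferred control against control 72 h and the difference between the Stat5ca effects stayed within 1.5 times under every alternative. A 2-fold minimum left 4 genes for Stat5ca against control at 72 h, 0 for transferred control against naive, 9 for transferred Stat5ca against transferred control, 0 against Stat5ca 72 h, 10 against naive and 0 for T-betKO cells. For transferred control against naive, a fit of these groups alone left 1 call, the myeloid covariate 2 and the CD8 marker covariate 0. The CD8 marker covariate gave 13 calls for transferred Stat5ca against Stat5ca 72 h and 5 for T-betKO cells, and the RNA integrity covariate 6. The myeloid and CD8 marker means overlapped only between control 72 h and naive and between transferred Stat5ca and naive arrays. In the other comparisons between groups, fits with these covariates cannot tell the groups from the markers. Without the day 14 arrays the T-betKO count was 0. Leaving out 1 array at a time gave 0 to 32 calls for Stat5ca against control at 72 h, 1 to 4 for transferred control against naive, 27 to 38 for transferred Stat5ca against transferred control, 3 to 5 against Stat5ca 72 h and 5 to 11 for T-betKO cells. A fit of fewer groups or arrays has fewer degrees of freedom; the cause of the other losses was not tested. No paired analysis was possible because the replicate numbers are array numbers that no 2 groups share. Among the members, signals near the receptor-gene background of 7.32 limit Orc1 and Gins1. Some genes of the other lists were under it too.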
